A study of Saccharomyces cerevisiae with 13 samples.

Results

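The 33 genes described here make ergosterol or govern its supply in the budding yeast Saccharomyces cerevisiae. They were taken by symbol from a list of the pathway and its regulators, and all 33 were measured, among 5449 genes in all. Each was read by 1 probe set, and no probe set name marked them as shared with a similar transcript. They comprise 9 early genes, which carry acetyl-CoA to farnesyl diphosphate, and 14 late genes, which carry farnesyl diphosphate through squalene to ergosterol. The rest are 3 genes for electron donors and a P450 helper, 2 for sterol esterification, 1 for sterol uptake and 4 for transcription regulators.

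Ergosterol is the main sterol of fungal membranes, the counterpart of cholesterol in animals. The early steps make mevalonate, with HMG-CoA reductase as the controlled enzyme, and end at farnesyl diphosphate, which also feeds ubiquinone, dolichol and protein prenylation. The late steps run in the endoplasmic reticulum and on lipid droplets, and several of them consume oxygen or depend on heme or iron. The zinc cluster factors Upc2 and Ecm22 activate many ERG genes when sterols run low, while Mot3 and Rox1 act as repressors of sterol and hypoxic genes.

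RNA came from strain BY4741, a haploid laboratory strain, grown to mid-log phase in the rich medium YPD and treated for 30 min. Solvent cells received DMSO and gave 3 arrays. Rapamycin was used at 100 nM and SMER1 at 20 µM, with 2 arrays for each alone and 2 for the combination at the same doses. The compounds SMER2 to SMER5 were each used at 20 µM and gave a single array apiece, 1 per compound. Rapamycin inhibits TOR complex 1, the kinase complex that couples growth to nutrients, and the SMERs are small molecule enhancers of rapamycin known by code names. The study set out to compare each SMER with solvent and with rapamycin.

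The deposited values are log2 signal intensities from one-colour Affymetrix arrays, and a difference of 1 is a 2-fold change. The array medians lay between 10.99 and 11.07, and the correlation of arrays within a group, over genes, ran from r = 0.984 to 0.992. Of the genes altered in BY4741, URA3 lay between 1.97 and 4.55, MET17 between 4.05 and 5.78 and LEU2 between 6.29 and 8.61, while HIS3, which carries a partial deletion, lay between 12.14 and 13.18. The mating type a genes MFA1, MFA2, STE2 and BAR1 lay between 11.52 and 13.93, while of the alpha genes MF(ALPHA)1 lay between 2.74 and 6.53, MF(ALPHA)2 between 3.96 and 7.01, STE3 between 6.38 and 8.49 and SAG1 between 9.84 and 10.43. The labels do not say whether replicates were separate cultures, so p-values may measure technical spread alone. Within groups the median SD of the 33 genes was 0.11, the same as that of all genes. Differences are given ± the standard error from limma, with p-values adjusted by Benjamini-Hochberg over the 5449 genes, and a gene was called when its adjusted p was under 0.05. The error of a single array was taken from the replicated groups. The comparisons with DMSO share the same 3 control arrays. On these arrays fewer cells that express a gene and less of its RNA per cell cannot be told apart.

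**Figure D1:**
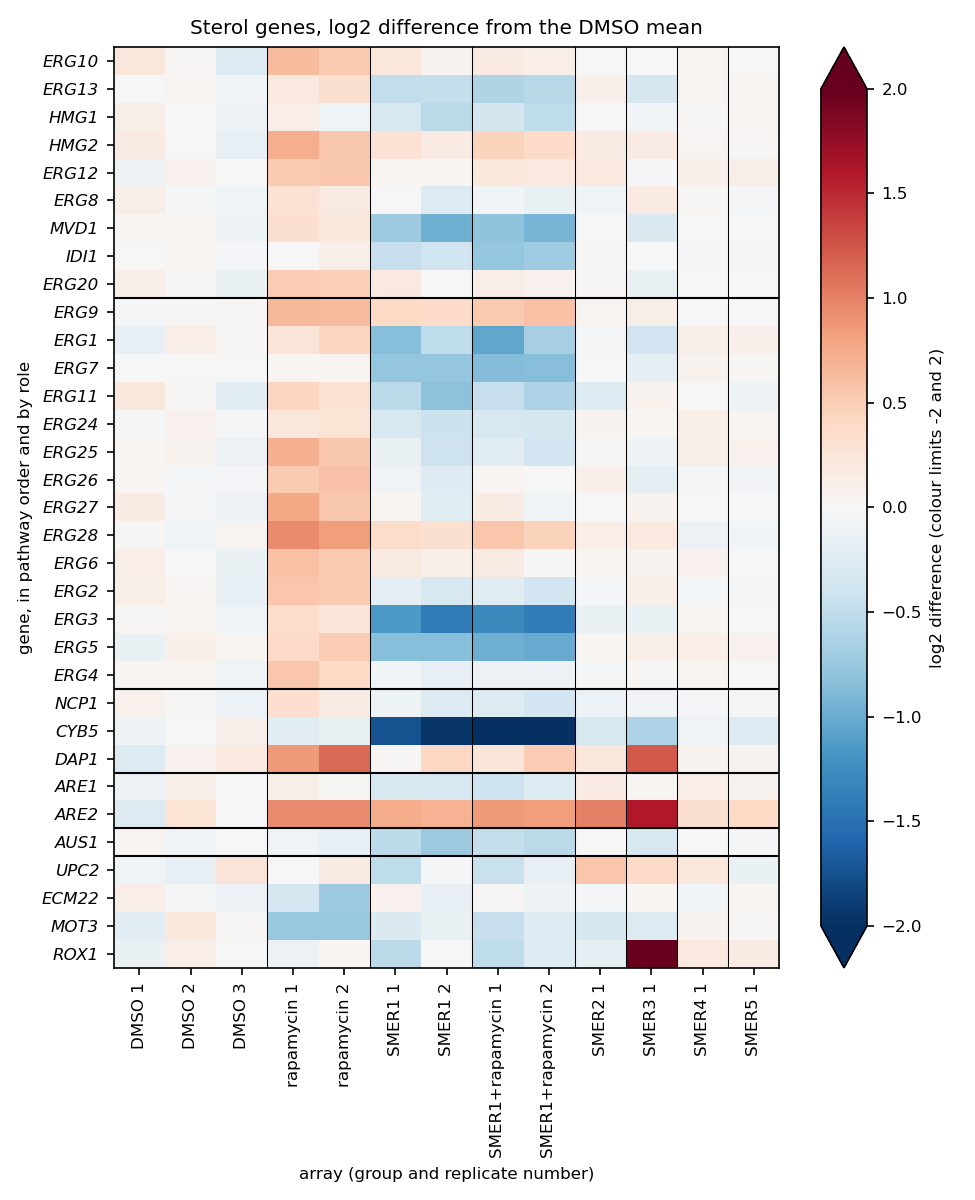
Log2 difference of each of the 33 genes (rows, in pathway order and by role, with black lines between roles) from the mean of the 3 DMSO arrays, on each of the 13 arrays (columns). The rapamycin arrays are mostly red across the early and late genes, the SMER1 arrays with or without rapamycin are blue at MVD1, ERG7, ERG3, ERG5 and CYB5, and the lone SMER3 array is red at DAP1, ARE2 and ROX1.

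Rapamycin raised most genes of the late pathway and some of the early one. Of the 14 late genes 11 were called higher and 0 lower, and of the 9 early genes 5 were called higher and 0 lower. Over all 33 genes 18 were higher and 2 lower, against 39.7% and 20.4% of all genes called higher and lower in this comparison (60.1% called in either direction). The median difference was 0.51 for the late genes, 0.26 for the early genes and 0.16 for all genes. After quantile normalisation these medians were 0.25, 0.02 and 0.03, and 14 genes were called higher and 4 lower. On both rapamycin arrays every one of the 14 late genes lay above all 3 DMSO arrays, as did 47.3% of all genes.

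The size of the rise with rapamycin varied from step to step. ERG28, whose product holds the C-4 demethylation enzymes together, lay at 12.19, 12.07 and 12.22 with DMSO and at 13.10 and 13 with rapamycin, a rise of 0.89 ± 0.07 (adjusted p = 4.02e-05). Both rapamycin arrays lay above all 3 solvent arrays. The other components of C-4 demethylation rose too: the oxidase gene ERG25 by 0.63 ± 0.11 (adjusted p = 0.00197), the dehydrogenase gene ERG26 by 0.56 ± 0.07 (adjusted p = 0.000397) and the ketoreductase gene ERG27 by 0.65 ± 0.13 (adjusted p = 0.00378). ERG9, squalene synthase, at the entry to the late pathway, rose by 0.64 ± 0.06 (adjusted p = 6.72e-05). Among the last steps, ERG6, the C-24 methyltransferase, rose by 0.55 ± 0.09, ERG2, the C-8 isomerase, by 0.54 ± 0.10 and ERG4, the final reductase, by 0.48 ± 0.08. The ERG4 call was lost after quantile normalisation (adjusted p = 0.109).

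Not every late gene was called with rapamycin. ERG7, lanosterol synthase, differed by 0.04 ± 0.05 (adjusted p = 0.555), and its 95% interval ran from −0.08 to 0.16. ERG1, squalene epoxidase, differed by 0.34 ± 0.16 and ERG11, the lanosterol 14-demethylase targeted by azole drugs, by 0.36 ± 0.14 (adjusted p = 0.0956 and 0.0600). ERG11 was called when DMSO replicate 1 was left out (0.46, adjusted p = 0.0225). Without either rapamycin array the ERG24 call was lost (adjusted p = 0.0514 and 0.0849). The ERG3 call was lost without DMSO replicate 3 or rapamycin replicate 1 (adjusted p = 0.0637 and 0.140), and after quantile normalisation ERG24 and ERG3 differed by 0.07 and 0.01.

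The early genes split with rapamycin. ERG10, which condenses acetyl-CoA, rose by 0.58 ± 0.13, ERG12, mevalonate kinase, by 0.53 ± 0.07 and ERG20, farnesyl diphosphate synthase, by 0.49 ± 0.09 (adjusted p = 0.00658, 0.000466 and 0.00272). Of the HMG-CoA reductase paralogs, HMG2 rose by 0.63 ± 0.11 (adjusted p = 0.00183), while HMG1 differed by 0.02 ± 0.11 (adjusted p = 0.884). The difference between the paralogs was not tested. ERG13, HMG-CoA synthase, rose by 0.26 ± 0.07, a call that was lost without rapamycin replicate 2 (adjusted p = 0.0925), and after quantile normalisation it differed by −0.07 (adjusted p = 0.501). The isomerase gene IDI1 differed by 0.07 ± 0.07 as deposited and was called lower, at −0.19, after quantile normalisation (adjusted p = 0.0236).

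**Figure D2:**
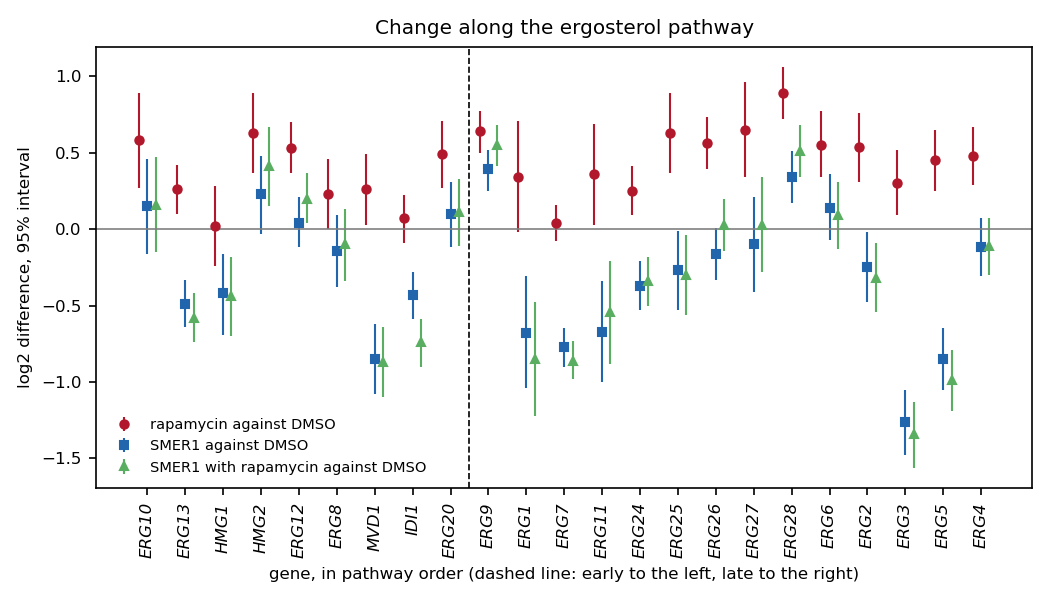
Log2 difference from DMSO (vertical axis, with 95% intervals from limma) of the 23 pathway genes in the order of the steps, for rapamycin (circles), SMER1 (squares) and SMER1 with rapamycin (triangles). All 23 circles lie above 0, while squares and triangles lie together and are lowest at ERG3, ERG5, ERG7, MVD1 and ERG1.

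SMER1 lowered a scattered set of pathway genes and raised few. Of the 14 late genes 6 were called lower and 2 higher, and of the 9 early genes 4 were called lower and 0 higher. Over all 33 genes 13 were lower and 3 higher, against 25% and 36.5% of all genes called lower and higher (61.5% in either direction). The median difference was −0.26 for the late genes, −0.14 for the early genes and 0.09 for all genes. After quantile normalisation these medians were −0.51, −0.30 and −0.04, and 22 genes were called lower and 2 higher, ERG20 and ERG6 among the lower (−0.20 and −0.14) although they lay at 0.10 and 0.14 as deposited.

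The deepest fall was that of CYB5, cytochrome b5, a heme protein that passes electrons to enzymes of sterol and lipid synthesis. CYB5 lay at 11.93, 12.04 and 12.13 with DMSO, at 10.29 and 10.09 with SMER1, and at 9.85 and 9.68 with SMER1 and rapamycin. The treated arrays did not overlap the solvent arrays, and the differences were −1.84 ± 0.09 and −2.27 ± 0.09 (3.58-fold and 4.82-fold lower, adjusted p = 4.77e-06 and 9.89e-07). With rapamycin alone CYB5 lay at 11.83 and 11.88, a difference of −0.18 ± 0.09 (adjusted p = 0.143), which was called lower after quantile normalisation (−0.29, adjusted p = 0.0434).

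ERG3, the C-5 desaturase that takes electrons from cytochrome b5, lay at 12.80, 12.82 and 12.70 with DMSO, at 11.63 and 11.38 with SMER1 and at 11.48 and 11.38 with both compounds. It was 2.39-fold lower with SMER1 (−1.26 ± 0.09, adjusted p = 2.27e-05). ERG5, the C-22 desaturase, a P450 enzyme, lay at 11.81, 12.05 and 11.98 with DMSO, at 11.10 on both SMER1 arrays, and at 10.97 and 10.94 with both compounds. It fell by 0.85 ± 0.09 with SMER1 (adjusted p = 0.000104). These last desaturations were low on all 4 arrays that held SMER1 and on no other array.

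ERG1, ERG7 and ERG11, which act on squalene, its epoxide and lanosterol, were lower with SMER1 as well. ERG1 lay at 12.69, 13 and 12.89 with DMSO, at 12.01 and 12.35 with SMER1, at 11.82 and 12.20 with both compounds, and at 13.11 and 13.29 with rapamycin. ERG1 was lower with SMER1 by −0.68 ± 0.16 (adjusted p = 0.00667), a call that was lost without SMER1 replicate 1 (adjusted p = 0.0542). ERG7 fell by 0.77 ± 0.05 (adjusted p = 1.70e-05). ERG11 lay at 13.61, 13.42 and 13.18 with DMSO, at 12.87 and 12.59 with SMER1, at 12.94 and 12.78 with both compounds, and at 13.83 and 13.70 with rapamycin. It fell by 0.67 ± 0.14 with SMER1 (adjusted p = 0.00428).

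Other late genes were called higher or not called with SMER1 as deposited. ERG9 and ERG28 rose by 0.39 ± 0.06 and 0.34 ± 0.07 (adjusted p = 0.000717 and 0.00428), though the ERG9 call was lost after quantile normalisation (0.12, adjusted p = 0.164). ERG6 and ERG4 differed by 0.14 ± 0.09 and −0.12 ± 0.08 as deposited (adjusted p = 0.218 and 0.230), and after quantile normalisation both were called lower (−0.14 and −0.41, adjusted p = 0.0493 and 0.00156). Of the 5 late enzymes that use molecular oxygen (ERG1, ERG11, ERG25, ERG3 and ERG5), 4 were called lower with SMER1 and 0 higher, with a median of −0.68. Of the other 9 late genes 2 were called lower and 2 higher, with a median of −0.12. Of all genes 25% were called lower and 36.5% higher. After quantile normalisation all 5 oxygen users and 7 of the other 9 were called lower, and 1 of the other 9 higher, with medians of −0.90 and −0.34. Of all genes 65.1% were then called in either direction. The grouping by oxygen use was made after the values were seen and was given no test.

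Among the early genes MVD1, mevalonate diphosphate decarboxylase, was lowest. It lay at 12.74, 12.75 and 12.60 with DMSO, at 11.97 and 11.72 with SMER1, at 11.89 and 11.76 with both compounds and at 13.01 and 12.90 with rapamycin, and it fell by 0.85 ± 0.10 with SMER1 (adjusted p = 0.000201). ERG13 fell by 0.49 ± 0.07 and IDI1 by 0.43 ± 0.07 (adjusted p = 0.000498 and 0.000806). HMG1 was lower by −0.42 ± 0.11 (adjusted p = 0.0121), a call lost without SMER1 replicate 2 (adjusted p = 0.0934), while HMG2 lay at 0.23 ± 0.11 (adjusted p = 0.114). HMG2 was called higher without DMSO replicate 1 (0.31, adjusted p = 0.0399).

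SMER1 given with rapamycin left the pathway near its level with SMER1 alone. Against DMSO 17 of the 33 genes were called lower and 5 higher, beside 31.2% and 39.6% of all genes (70.8% in either direction). The medians were −0.31 for the late and −0.10 for the early genes, and −0.50 and −0.26 after quantile normalisation. Compared with SMER1 alone, 2 of the 33 genes were called, IDI1 (−0.31 ± 0.07, adjusted p = 0.0263) and CYB5 (−0.42 ± 0.10, adjusted p = 0.0295), both lower, beside 11.7% of all genes called lower and 4.96% higher (16.6% in either direction). Neither call held when SMER1 with rapamycin replicate 1 or 2, or SMER1 replicate 1, was left out, and the CYB5 adjusted p then lay at 0.0623, 0.183 and 0.159. In this comparison the 95% interval of a gene's difference reached 0.25 to either side at the median of the 33 genes. This reach varied from 0.14 to 0.47 among them, so small differences could have been missed.

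SMER1 and rapamycin, set directly against each other, differed at 29 of the 33 genes, or at 22 in a fit of those groups alone. With SMER1 all 14 late genes and 8 of the 9 early genes were called lower than with rapamycin, and 0 of these 23 were called higher. Over the 33 genes 27 were lower and 2 higher, against 19.7% and 17.1% of all genes (36.8% in either direction). The median was −0.77 for the late genes, −0.45 for the early genes and −0.01 for all genes, and after quantile normalisation −0.71, −0.42 and 0.00, with 13 late and 9 early genes called lower. The largest differences were those of CYB5 (−1.67 ± 0.10), ERG3 (−1.57 ± 0.10), ERG5 (−1.30 ± 0.09), MVD1 (−1.10 ± 0.11), ERG11 (−1.03 ± 0.16) and ERG1 (−1.02 ± 0.17), with adjusted p from 5.36e-05 to 0.00340. Of the 29 calls, 18 held when any single array was left out. The number called then lay between 20 and 30.

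Adding SMER1 to rapamycin lowered 26 of the 33 genes and raised 1, ECM22, against 28.2% and 18.1% of all genes (46.4% in either direction). Of the late genes 13 were called lower, all but ERG9, which lay at −0.09 ± 0.06 (adjusted p = 0.267). Of the early genes 8 were called lower, all but HMG2, at −0.22 ± 0.12 (adjusted p = 0.177). The medians were −0.74, −0.42 and −0.08 for late, early and all genes. CYB5 fell by 2.09 ± 0.10 and ERG3 by 1.65 ± 0.10 (adjusted p = 3.14e-05 and 5.51e-05). ERG5 fell by 1.44 ± 0.09, ERG1 by 1.19 ± 0.17 and MVD1 by 1.13 ± 0.11 (adjusted p = 6.57e-05, 0.00149 and 0.000250). Without SMER1 with rapamycin replicate 2 the number called was 17, all lower, and 30.2% of all genes were then called. The ECM22 call was lost without rapamycin replicate 2 or either array of SMER1 with rapamycin (adjusted p = 0.162, 0.134 and 0.0724).

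The effect of SMER1 was lower in the presence of rapamycin than in its absence for 13 of the 33 genes by the interaction term, and higher for 0, beside 21.3% and 4.42% of all genes (25.7% in either direction). The median interaction was −0.50 for the late genes, −0.37 for the early genes and −0.18 for all genes. ERG28 had −0.73 ± 0.11 and ERG9 −0.48 ± 0.09 (adjusted p = 0.00341 and 0.00696), and these 2 calls held when any single array was left out. The other 11 were each lost without some array. The number called was 7 without DMSO replicate 3, 3 without SMER1 replicate 1, 6 and 2 without SMER1 with rapamycin replicates 1 and 2, and 6 without rapamycin replicate 1 or 2. After quantile normalisation the medians were −0.16, −0.11 and 0.00 for late, early and all genes, and 2 of the 33 genes were called lower, ERG28 (−0.49, adjusted p = 0.0142) and ERG6 (−0.33, adjusted p = 0.0240), and 1 higher, MOT3 (0.75, adjusted p = 0.0292). The ERG9 call was then lost (−0.15, adjusted p = 0.349).

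**Figure D3:**
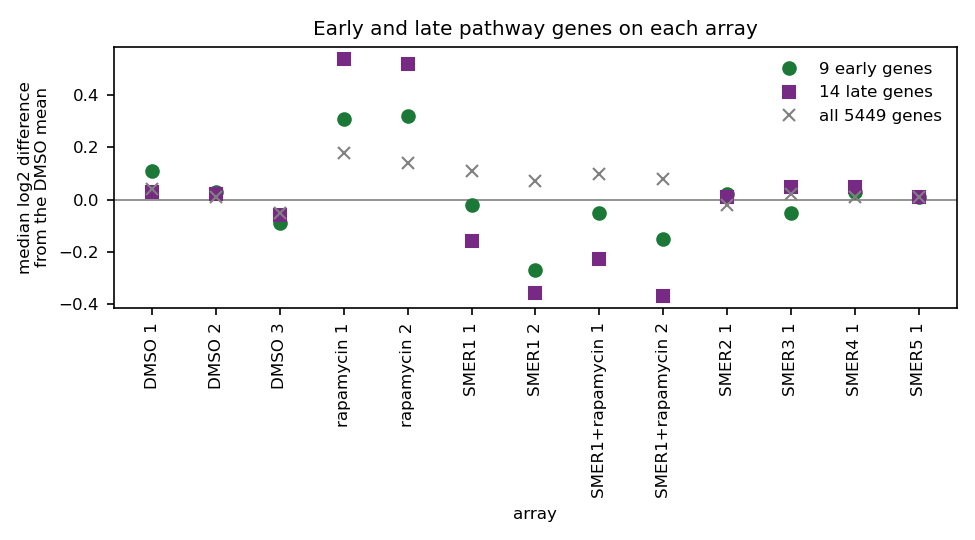
Median log2 difference from the DMSO mean of the 9 early genes (circles), the 14 late genes (squares) and all 5449 genes (crosses) on each of the 13 arrays. The late median is the higher one on both rapamycin arrays (0.54 and 0.52, against 0.31 and 0.32) and the lower one on the 4 arrays that held SMER1.

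Early and late genes were set side by side on every array. With rapamycin the early median minus the late median was −0.23 and −0.20 on the 2 arrays. It was 0.15 and 0.09 on the SMER1 arrays, and 0.18 and 0.21 on the arrays with both compounds. On the DMSO arrays it was 0.08, 0.00 and −0.03, and on the SMER2, SMER3, SMER4 and SMER5 arrays 0.00, −0.10, −0.02 and 0.00. The SD of this value was 0.059 over the DMSO arrays and 0.044 pooled within groups, and 1 SMER1 array, at 0.09, lay just above the highest DMSO array. The late genes thus lay farther from solvent than the early genes in both directions, above with rapamycin and below with SMER1. With ERG9, ERG1 and ERG7 counted as early, the value for SMER1 turned to −0.03 and that for both compounds to 0.01, while that for rapamycin was −0.20. The early and late contrast under SMER1 therefore rested on where those 3 steps were placed.

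**Figure D4:**
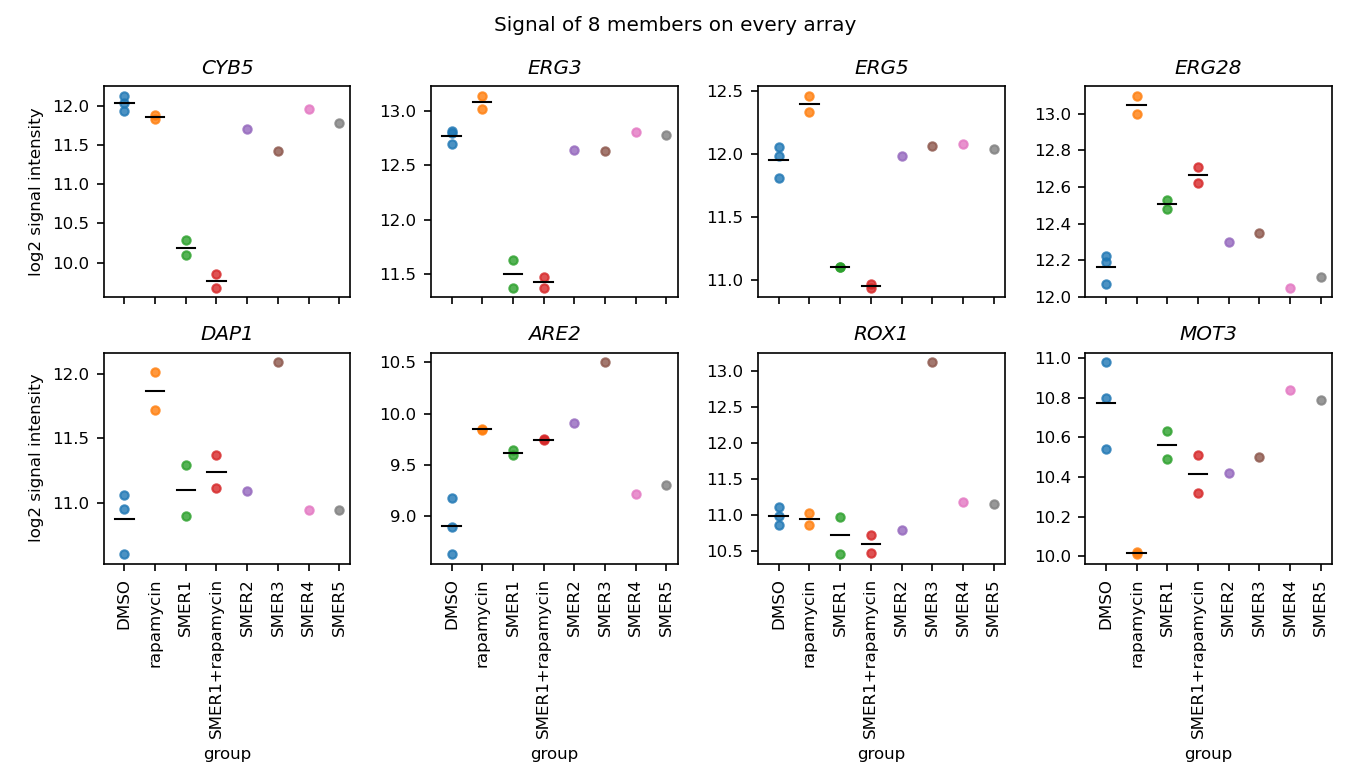
Log2 signal intensity (vertical axes, a separate scale for each gene) of 8 genes on every array, by group, with a bar at the mean of groups that hold more than 1 array. CYB5, ERG3 and ERG5 are low on the 4 arrays that held SMER1, MOT3 is low on both rapamycin arrays, and ROX1, DAP1 and ARE2 are highest on the lone SMER3 array.

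With SMER3 1 of the 23 early and late genes was called, ERG13, which was lower, and 3 genes outside the enzyme chain were called higher. Of the 33 genes 3 were called higher and 3 lower, against 21.6% and 14.8% of all genes (36.4% in either direction). None of the 14 late genes was called by limma as deposited, with 0 of them lower and 0 higher. The median of the 33 genes was 0.03 as deposited, −0.03 after median centring and −0.09 after quantile normalisation, which called 3 higher and 7 lower, the late genes ERG7 (−0.28) and ERG26 (−0.28) among them. The median of all genes was 0.01, and −0.09 after quantile normalisation. The SMER3 array had no replicate, so its differences had no replicate check.

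ROX1, the repressor of hypoxic genes, whose own transcription depends on heme, lay at 13.12 with SMER3, above every other array of the series. It lay at 10.86, 11.12 and 10.99 with DMSO, at 10.87 and 11.03 with rapamycin, at 10.46 and 10.98 with SMER1, at 10.48 and 10.73 with both compounds, and at 10.80, 11.18 and 11.16 with SMER2, SMER4 and SMER5. The difference of SMER3 from DMSO was 2.13 ± 0.21, a 4.38-fold rise (adjusted p = 0.000220). At the same dose of 20 µM SMER3 was higher than SMER1 by 2.39 ± 0.22 (adjusted p = 0.000208).

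DAP1, a heme-binding protein that supports the P450 Erg11, was high with SMER3 and with rapamycin. It lay at 10.60, 10.95 and 11.06 with DMSO, at 11.72 and 12.01 with rapamycin, at 10.90 and 11.29 with SMER1, at 11.11 and 11.37 with both compounds, at 12.09 with SMER3, and at 11.09, 10.94 and 10.94 with SMER2, SMER4 and SMER5. The rises were 1.22 ± 0.23 with SMER3 and 0.99 ± 0.18 with rapamycin (adjusted p = 0.00521 and 0.00229). With SMER1 it differed by 0.22 ± 0.18 (adjusted p = 0.320).

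ARE2, the sterol acyltransferase that makes most sterol ester in aerobic cells, was the member called higher with each of rapamycin, SMER1, both compounds and SMER3. It lay at 8.63, 9.18 and 8.89 with DMSO, at 9.84 and 9.85 with rapamycin, at 9.64 and 9.60 with SMER1, at 9.75 and 9.74 with both compounds, at 10.50 with SMER3, and at 9.91, 9.22 and 9.30 with SMER2, SMER4 and SMER5. The rises with rapamycin, SMER1, both compounds and SMER3 were 0.95 ± 0.14, 0.72 ± 0.14, 0.84 ± 0.14 and 1.60 ± 0.18 (adjusted p = 0.000866, 0.00319, 0.00112 and 0.000433). With SMER2 the difference was 1.00 ± 0.18 and was not called (adjusted p = 0.101). The lone SMER4 and SMER5 arrays differed from the DMSO mean by 0.32 and 0.40, and neither difference was called. Its paralog ARE1 was lower with SMER1 (−0.32 ± 0.09, adjusted p = 0.0127), a call lost without either SMER1 array (adjusted p = 0.0554 and 0.0601), and differed by 0.07 ± 0.09 with rapamycin (adjusted p = 0.502).

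CYB5 and ERG13 were lower with SMER3 than with DMSO (−0.61 ± 0.12 and −0.34 ± 0.09, adjusted p = 0.00587 and 0.0180). AUS1 lay at −0.32 ± 0.10 (adjusted p = 0.0421), a call lost when any 1 of 7 arrays, DMSO, rapamycin or both compounds, was left out (adjusted p = 0.0571 to 0.0777). Set directly against SMER1 at the matched dose and time, 13 of the 33 genes were higher with SMER3 and 1 lower, beside 20.6% and 26.1% of all genes (46.7% in either direction). CYB5 was higher with SMER3 by 1.23 ± 0.13, ERG3 by 1.12 ± 0.12 and ERG5 by 0.96 ± 0.12 (adjusted p = 0.000334, 0.000455 and 0.000621). This was the 1 pair of SMERs compared.

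AUS1, an ABC transporter for sterol uptake in cells without oxygen, fell by 0.62 ± 0.08 with SMER1 and by 0.51 ± 0.08 with both compounds (adjusted p = 0.000348 and 0.000754). Rapamycin gave −0.12 ± 0.08 (adjusted p = 0.215). NCP1, the P450 reductase, was lower with both compounds than with DMSO (−0.33 ± 0.10, adjusted p = 0.0187), and this call was lost without DMSO replicate 1 or SMER1 with rapamycin replicate 2 (adjusted p = 0.0505 and 0.116). With SMER1 NCP1 differed by −0.19 ± 0.10 (adjusted p = 0.137) and was called lower after quantile normalisation (−0.42, adjusted p = 0.00247). With rapamycin it differed by 0.24 ± 0.10 (adjusted p = 0.0637) and was called higher without DMSO replicate 1 (0.29, adjusted p = 0.0494).

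The sterol activators UPC2 and ECM22 and the repressor MOT3 were called in few comparisons. UPC2 lay at 10.05, 9.97 and 10.40 with DMSO, at 10.13 and 10.30 with rapamycin, at 9.63 and 10.10 with SMER1, at 9.70 and 9.97 with both compounds, and at 10.70, 10.52, 10.35 and 10.01 with SMER2 to SMER5. It was not called in any comparison in the fit of all arrays as deposited, and its difference was 0.07 ± 0.18 with rapamycin and −0.27 ± 0.18 with SMER1 (adjusted p = 0.752 and 0.230). SMER3 against SMER1 gave 0.65 ± 0.24 (adjusted p = 0.0631), which was called without SMER1 replicate 2 (0.88, adjusted p = 0.0297) or DMSO replicate 3 (adjusted p = 0.0465).

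ECM22, the paralog of UPC2, lay at 10.56, 10.41 and 10.31 with DMSO, at 10.07 and 9.70 with rapamycin, at 10.51 and 10.26 with SMER1, and at 10.45 and 10.32 with both compounds. On the SMER2, SMER3, SMER4 and SMER5 arrays it lay at 10.38, 10.47, 10.37 and 10.46. It was low on the rapamycin arrays alone, by −0.54 ± 0.14 (adjusted p = 0.0109), and without rapamycin replicate 2 this call was lost (−0.35, adjusted p = 0.0799).

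MOT3 lay at 10.54, 10.98 and 10.80 with DMSO, at 10.01 and 10.02 with rapamycin, at 10.49 and 10.63 with SMER1, and at 10.32 and 10.51 with both compounds. On the SMER2, SMER3, SMER4 and SMER5 arrays it lay at 10.42, 10.50, 10.84 and 10.79. It fell by 0.76 ± 0.13 with rapamycin (adjusted p = 0.00170) and differed by −0.21 ± 0.13 with SMER1 (adjusted p = 0.191). MOT3 was also called lower with both compounds, a call lost without DMSO replicate 2 or 3 (adjusted p = 0.101 and 0.0884). The call was lost as well when either array of SMER1, of rapamycin or of both compounds was left out. After quantile normalisation 0 of the 4 regulators were called lower with both compounds. Of the 23 early and late genes, 16 were called higher and 0 lower with rapamycin, beside 39.7% and 20.4% of all genes. With both compounds 4 of the 23 were called higher and 12 lower, beside 39.6% and 31.2% of all genes. A link between MOT3 and these genes was not tested.

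SMER2, SMER4 and SMER5 gave no called change among the 33 genes by limma, beside 0.312%, 0% and 0% of all genes called (0.0918% higher and 0.22% lower with SMER2). At an unadjusted p under 0.05 there were 3, 0 and 0 of the 33. The 95% intervals of the differences reached 0.29 to either side at the median of the 33 genes and 0.54 at the widest. The medians of the 33 genes on these arrays were 0.01, 0.05 and 0.01.

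Genes next to the pathway were read from lists, and the changes given for them had adjusted p between 2.58e-06 and 0.00720. The background for the counts of each list was 39.7% of all genes called higher and 20.4% lower with rapamycin, and 36.5% higher and 25% lower with SMER1. Of 11 fatty acid synthesis genes, 7 rose and 2 fell with rapamycin (median 0.48), and 1 rose and 4 fell with SMER1 (median 0.00). OLE1, the fatty acid desaturase, rose by 0.70 ± 0.16 with rapamycin and fell by 1.28 ± 0.16 with SMER1. The elongase genes ELO2 and ELO3 fell by 1.15 ± 0.11 and 1.06 ± 0.09 with SMER1. Both also lay below the DMSO arrays with rapamycin. ELO2 lay at 11.68 and 11.91, against 12.30, 12.56 and 12.48 with DMSO. ELO3 lay at 12.71 and 12.65, against 13.18, 13.12 and 13.01.

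Of 14 heme synthesis and hypoxic genes, 6 rose and 4 fell with rapamycin and 6 rose and 3 fell with SMER1, shares near those of all genes with SMER1. CYC7, the hypoxic form of cytochrome c, rose by 1.83 ± 0.21 with rapamycin, 3.57 ± 0.21 with SMER1 and 2.22 ± 0.27 with SMER3. HMX1 and COX5B of this list rose by 2.38 ± 0.28 and 1.37 ± 0.10 with rapamycin, and HMX1 by 1.88 ± 0.28 with SMER1. COX5B lay at 12.56 and 12.64 with SMER1, against 11.21, 11.30 and 11.50 with DMSO. The hypoxic genes ANB1 and AAC3 moved the other way: ANB1 fell by 1.31 ± 0.17 with SMER1, and AAC3 fell by 1.80 ± 0.17 with both compounds. With rapamycin alone ANB1 lay at 9.91 and 10.18, against 10.78, 10.70 and 11.24 with DMSO. AAC3 then lay at 9.14 and 9.36, against 10.28, 10.41 and 10.59. HEM13, coproporphyrinogen oxidase, was lower with SMER1 than with rapamycin by −0.77 ± 0.12.

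Of 26 genes of sterol transport and ester turnover, 15 rose and 3 fell with rapamycin and 13 rose and 6 fell with SMER1 (medians 0.27 and 0.23). HES1, an oxysterol-binding protein, lay at 8.10, 7.84 and 7.91 with DMSO, at 9.80 and 9.53 with rapamycin and at 7.49 and 6.85 with SMER1, and rose by 1.72 ± 0.20 with rapamycin. ATF2, the acetyltransferase that acts on sterols, fell by 2.19 ± 0.15 with SMER1 and lay at −2.80 ± 0.15 with both compounds. With rapamycin ATF2 lay at 9.79 and 9.81, against 10.63, 10.69 and 10.61 with DMSO. The next largest called changes with SMER1 were rises, of PRY1 by 1.32 ± 0.16 and LAM4 by 1.07 ± 0.17. PDR11, a transporter related to AUS1, rose by 1.02 ± 0.15 with rapamycin, and SUT1, a regulator of sterol uptake, fell by 1.04 ± 0.12.

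Of 11 genes that draw isoprenoids from farnesyl diphosphate, 6 rose and 3 fell with rapamycin and 4 rose and 3 fell with SMER1, again near the shares of all genes with SMER1. The cis-prenyltransferase paralogs moved apart: SRT1 rose by 1.05 ± 0.08 and RER2 fell by 0.96 ± 0.07 with rapamycin, and with SMER3 SRT1 rose by 2.04 ± 0.10 while RER2 fell by 0.57 ± 0.09. Of 9 genes of HMG-CoA reductase turnover, 5 rose and 0 fell with rapamycin and 5 rose and 1 fell with SMER1. NSG2, which stabilises HMG-CoA reductase, rose by 1.01 ± 0.06 and 0.97 ± 0.06.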

How the data were processed

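Per the labels, RNA was prepared with a RiboPure-Yeast kit, labelled with the One-Cycle Target Labeling Assay and hybridised to Affymetrix arrays. The values deposited by the authors were log2 signals for 5716 probe sets. Their range, 0 to 14.67, is the basis for reading them as log2. Probe summary, background correction and normalisation were not given in the sources used here. Probe sets were named through the platform's gene table (5498 with 1 gene name, 218 with none, 12 symbols updated from the R64 gene table). For the 47 genes with several probe sets the highest mean was kept.

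All 13 arrays entered 1 limma fit (limma 3.58.1, R 4.3.3) with 1 mean per group and eBayes moderation (5 residual and 2.36 prior degrees of freedom), two-sided. The fit was run on simulated arrays with independent noise and known changes in the SMER1 group alone. The simulated arrays lacked the shared deviations of same-numbered arrays, so that run cannot speak to their effect here. Lone arrays add no degrees of freedom. The early and late medians were given no test. Precision is limited by how few arrays each group has. The 33 genes and the lists were chosen with earlier results of these data known. Every member could be named. From the other lists, at most the 3 largest called changes per list and comparison were named. For some genes named in this way, levels in further groups were given as well. Alternatives were quantile normalisation, median centring, leaving out the 25% of genes with the lowest mean, the mean of probe sets, an intensity trend, a fit of only the groups compared, the replicate number as a block and leaving out each replicated array.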

Additional observations from a re-analysis of the deposited data

Results flagged for a closer look

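The effect of SMER1 on 13 genes differed by the interaction term between cells with and without rapamycin, each being lower with rapamycin. The values on the log2 scale were −0.35 for ERG13, −0.37 for ERG12, −0.37 for IDI1 and −0.48 for ERG20 among the early genes. Among the late genes they were −0.48 for ERG9, −0.66 for ERG25, −0.37 for ERG26, −0.73 for ERG28, −0.61 for ERG6, −0.60 for ERG2, −0.59 for ERG5 and −0.48 for ERG4. The value for ARE2 was −0.82, with differences from DMSO of 0.95 for rapamycin, 0.72 for SMER1 and 0.84 for both. Adjusted p lay between 0.00341 and 0.0425. The median over all genes was −0.18, and 21.3% of all genes were called lower.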

How the results depend on the processing

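Of the 20, 16, 22, 27 and 29 members called for rapamycin, SMER1 and both compounds against DMSO, for both compounds against rapamycin, and for SMER1 against rapamycin, 15, 12, 13, 16 and 18 were called under every alternative. For SMER3 against DMSO it was 4 of 6, for SMER3 against SMER1 6 of 14, and for the interaction 1 of 13. Leaving out single arrays gave 17 to 23 calls for rapamycin, 15 to 18 for SMER1, 15 to 21 for both compounds, 17 to 28 for both against rapamycin, 0 to 2 for both against SMER1, 20 to 30 for SMER1 against rapamycin, 2 to 15 for the interaction, 0 to 1 for SMER2, 5 to 6 for SMER3 and 11 to 15 for SMER3 against SMER1. Quantile normalisation gave 3 calls for the interaction (13 as deposited), 10 for SMER3 (6) and 1 for both compounds against SMER1 (2), and median centring gave 1 for the last. The fit of only the groups compared gave 0 for both compounds against SMER1 and 8 for SMER3 against SMER1 (14). The cause was not tested. Quantile normalisation reversed ERG13 (−0.07) and IDI1 (−0.19) with rapamycin, ERG20 (−0.20) and ERG6 (−0.14) with SMER1, and ERG26 (−0.18) and ERG6 (−0.17) with both compounds.

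The early minus late value for SMER1 was 0.12, or 0.20 after quantile normalisation and −0.03 with ERG9, ERG1 and ERG7 counted as early. For both compounds it was 0.20, or 0.24 and 0.01 under the same changes, 0.11 with means and 0.15 to 0.22 without single arrays. With means it was −0.14 for rapamycin (−0.21), 0.05 for SMER2 (0.00) and −0.05 for SMER3 (−0.10), and without single arrays −0.10 to −0.04 for SMER3.

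Replicate numbers are shared between groups, but the labels do not say what a number stands for. Deviations of same-numbered arrays correlated across genes with r between 0.07 and 0.598. The low values, 0.07 to 0.131, were those of DMSO replicate 2 with the other groups. Among rapamycin, SMER1 and both compounds r ran from 0.436 to 0.598. The pairing stays a hint from the data, and the main fit did not use it. With the replicate block the members called were 22 for the interaction, 4 for both compounds against SMER1, 4 for SMER2, 12 for SMER3 and 22 for SMER3 against SMER1. The block raised the share of all genes called as well. In the same order it was 43.6%, 33.1%, 9.4%, 52.3% and 62.0%, against 25.7%, 16.6%, 0.3%, 36.4% and 46.7% in the main fit. UPC2 was then called in 4 comparisons. For the other comparisons the count of members stayed within 1.5 times.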
